A study of Apostichopus japonicus with 3 samples.

Results

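Glycosidases are enzymes that cut sugar chains. Of the 20991 isotigs with a read in this study, 11 make up the set called glycosidases here. Enzymes such as galactosidase or sucrase-isomaltase are glycosidases too but lie outside this set. It does include the beta subunit of glucosidase II, which holds the catalytic subunit in place. An isotig is a transcript put together by sequence assembly, and 1 gene can give rise to more than 1 isotig. The 11 were isotig14693 and isotig08881, both matched to lactase-phlorizin hydrolase, and 9 others whose best protein match is named lactase-phlorizin hydrolase, glucosidase or amylase. Those 2 isotigs had been chosen by their read counts in these same libraries (many in deep aestivation, few or 0 in non-aestivation), so their values are a description, and the other 9 were taken by name alone. No isotig was named chitinase, cellulase, endoglucanase or beta-glucosidase.

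The RNA came from the respiratory tree of the sea cucumber Apostichopus japonicus, the branched organ in the body cavity through which the animal takes up oxygen. Poly(A) RNA was sequenced at 3 stages, with 1 library each. They were non-aestivation, deep aestivation (the summer dormancy in which feeding stops) and arousal from aestivation, with at least 15 individuals for each stage and no statement of how they were pooled. With no replicate, every comparison is between libraries and carries no test. The libraries held 0.941, 0.887 and 0.963 M uniquely mapped reads in the order of the stages. The intervals given are exact 95% intervals of counting error alone. Fewer cells of a type and less RNA per cell cannot be told apart in such bulk RNA. The lists used here hold no marker of the respiratory tree itself, so the labelled tissue was not checked.

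In mammals, lactase-phlorizin hydrolase sits on the brush border of the small intestine and splits lactose and plant beta-glucosides, and it belongs to the same family as the cytosolic and plant beta-glucosidases. Alpha-amylase cuts starch and glycogen into short chains, and maltase-glucoamylase releases glucose from their ends. Acid alpha-glucosidase does the same inside lysosomes, where it degrades glycogen. Glucosidase II works elsewhere, in the endoplasmic reticulum, where it trims glucose from the sugar chains of newly made glycoproteins. Its beta subunit holds the catalytic subunit in that compartment.

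As the sum of its 4 isotigs, lactase-phlorizin hydrolase was 19.0-fold higher in deep aestivation than in non-aestivation, where nearly all reads of the sum belong to the isotigs chosen for this pattern. The 7 other glycosidases, taken by name, were together 1.40-fold lower. On the log2 scale this was -0.48 (-0.85 to -0.12), and the median difference over all isotigs with a protein match and 20 or more summed reads was -0.36. At arousal the lactase sum was 2.46-fold lower than in deep aestivation but still 7.71-fold higher than in non-aestivation. The summed glucosidase II isotigs were 4.03-fold lower at arousal than at non-aestivation, and alpha-amylase had between 8 and 10 reads at every stage.

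Lactase-phlorizin hydrolase on isotig08881, an isotig of 2462 bases, had 32 reads at non-aestivation, 540 at deep aestivation and 290 at arousal. Per length and depth (RPKM, reads per kilobase of isotig per 1e6 mapped reads), these were 13.8, 247.2 and 122.3. Deep aestivation was the highest stage and non-aestivation the lowest, the order for which the isotig was chosen. The counting intervals of the 3 levels were 9.45 to 19.5, 226.8 to 269.0 and 108.6 to 137.2 RPKM. Its read rate in deep aestivation was 17.9 times that in non-aestivation (12.5 to 26.4). In arousal it was 2.02-fold lower than in deep aestivation (1.75 to 2.34), close to the 2-fold line used below for a call, and 8.86-fold higher than in non-aestivation (6.14 to 13.2). Ranked by RPKM among isotigs with a protein match, it stood at place 4611 of 9464 at non-aestivation, 266 of 8908 at deep aestivation and 492 of 8924 at arousal.

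Isotig14693, of 1489 bases, had 119 reads in deep aestivation (90.1 RPKM, 74.6 to 107.8) and 0 in both other libraries, where 3 reads would be 2.14 RPKM in non-aestivation and 2.09 in arousal. With a count of 0 read as 3, deep aestivation was at least 42.1-fold higher than non-aestivation, and the lower end of the exact interval was 33.7. Arousal was at least 43.1-fold lower than deep aestivation, with an interval end of 34.5. The 119 reads were spread over 86.9% of the isotig. It was the 1 isotig of the whole table with at least 100 reads in deep aestivation and 0 elsewhere, and 3 isotigs had this pattern from 20 reads up. These counts use the same values by which isotig14693 was chosen, so they are a description. Serum amyloid protein A (isotig08093), with 1, 162 and 0 reads in the order of the stages, fell outside by 1 read.

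Both lactase isotigs have the same best match, a predicted protein of the sea urchin Strongylocentrotus purpuratus, with E-values of 4.65e-38 for isotig08881 and 1.33e-39 for isotig14693. Reads were counted only where they mapped to 1 place, so stretches that the isotigs share would add to neither. Of all lactase reads, isotig14693 took 18% in deep aestivation (119 of 661, 15.2 to 21.2). It took 0 of 37 in non-aestivation, where 3 reads would be 8.11% and the exact upper limit is 9.49%. In arousal it took 0 of 292, where 3 reads would be 1.03% and the exact upper limit is 1.26%. This split is part of the pattern by which both isotigs were chosen and is given as a description.

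The remaining lactase isotigs were short and rare. Isotig28374, named lactase-phlorizin hydrolase-like after an acorn worm protein, had 5 reads at non-aestivation and 1 at each later stage. Isotig27463 had 0, 1 and 1. No difference was detectable on either at this depth, and neither reached the minimum of 20 summed reads set for the comparisons. In the sum of the 4 isotigs, 37, 661 and 292 reads gave rates of 39.3 (27.7 to 54.2), 745.1 (689.4 to 804.1) and 303.2 (269.4 to 340.1) reads per 1e6. The ratios of these rates were 19.0 (13.6 to 27.2) for deep aestivation over non-aestivation and 7.71 (5.47 to 11.2) for arousal over non-aestivation, and arousal was 2.46-fold lower than deep aestivation (2.14 to 2.83).

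**Figure D1:**
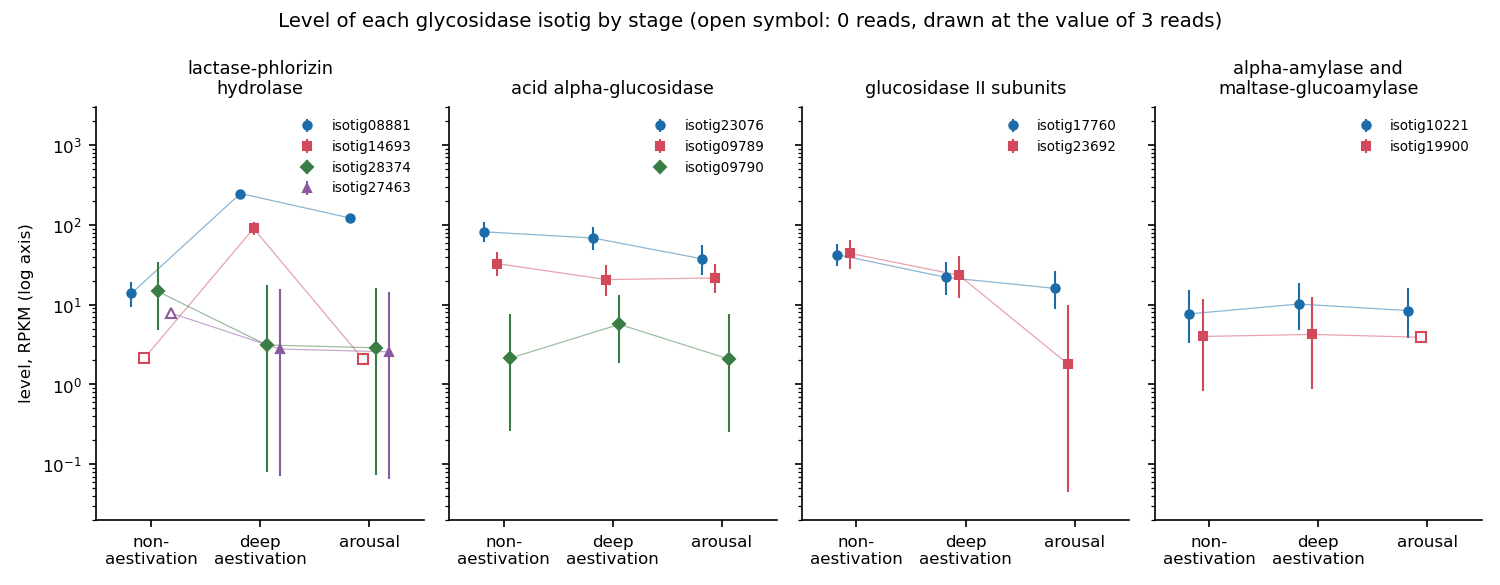
Level of each of the 11 isotigs in RPKM (log axis) at the 3 stages, in 1 panel per enzyme, with exact 95% counting intervals and 1 library per stage. Open symbols are isotigs with 0 reads, drawn at the value of 3 reads, and isotig08881 and isotig14693 stand highest in deep aestivation, at 247.2 and 90.1 RPKM.

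Acid alpha-glucosidase was represented by 3 isotigs with the same best match, a partial protein of the acorn worm Saccoglossus kowalevskii. Isotig23076 had 47, 37 and 22 reads in the order of the stages, which is 81.9, 68.4 and 37.5 RPKM. It was the most abundant member in non-aestivation and lowest in arousal, which was 2.19-fold lower than non-aestivation (1.29 to 3.81) and 1.83-fold lower than deep aestivation (1.05 to 3.25). Isotig09789 had 37, 22 and 25 reads (32.7, 20.6 and 21.6 RPKM), and the intervals of all its ratios held equal rates. Isotig09790 had 2, 5 and 2 reads and was too rare to compare. Summed, the enzyme had 86, 64 and 49 reads. Deep aestivation was 1.27-fold lower than non-aestivation (0.906 to 1.78), a difference not detectable at this depth, and arousal was 1.80-fold lower than non-aestivation (1.25 to 2.61).

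Glucosidase II had 2 isotigs. The one matched to its beta subunit (isotig17760) had 39, 19 and 15 reads in the order of the stages, or 42.5, 22.0 and 16.0 RPKM. The other (isotig23692), matched to a protein named glucosidase II, had 24, 12 and 1 reads, or 44.03, 23.4 and 1.79 RPKM. On both isotigs non-aestivation had the most reads and arousal the fewest, but for isotig17760 arousal and deep aestivation were not apart beyond counting error (1.38-fold lower in arousal, 0.662 to 2.91). Their levels lay close together in non-aestivation and in deep aestivation, where the ratio per length of isotig23692 to isotig17760 was 1.04 (0.596 to 1.77) and 1.06 (0.471 to 2.31).

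In deep aestivation the sum of both glucosidase II isotigs was 1.92-fold lower than in non-aestivation (1.23 to 3.05), with 31 and 63 reads. In arousal it was 2.10-fold lower than in deep aestivation (1.12 to 4.12) and 4.03-fold lower than in non-aestivation (2.30 to 7.47). The difference of the sum between arousal and deep aestivation rests mainly on isotig23692, with 1 and 12 reads. The single read of isotig23692 at arousal makes its own fold imprecise, at 24.6-fold lower than non-aestivation with an interval of 4.0 to 1010. The beta subunit isotig alone was 2.66-fold lower in arousal than in non-aestivation (1.43 to 5.19).

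Of the starch-digesting enzymes, alpha-amylase (isotig10221) had 8, 10 and 9 reads in the 3 stages, or 7.67, 10.2 and 8.43 RPKM. Its ratio was 1.33 for deep aestivation over non-aestivation (0.471 to 3.87), an interval that holds equal rates, so no difference was detectable at this depth. Maltase-glucoamylase (isotig19900) had 3, 3 and 0 reads.

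The share of lactase-phlorizin hydrolase in the reads of all 11 isotigs was 18.8% at non-aestivation (37 of 197, 13.6 to 24.9), 86.0% at deep aestivation (661 of 769, 83.3 to 88.3) and 79.8% at arousal (292 of 366, 75.3 to 83.8). The acid alpha-glucosidase share was 43.7%, 8.32% and 13.4%, and the glucosidase II share 32.0%, 4.03% and 4.37%. These shares depend on the lactase reads in the total. Per 1e6 mapped reads, acid alpha-glucosidase had 91.4, 72.1 and 50.9 and glucosidase II 66.9, 34.9 and 16.6 in the 3 stages. The 7 isotigs other than lactase had 108 reads in deep aestivation and 160 in non-aestivation, a 1.40-fold lower rate (1.09 to 1.80). They had 74 reads in arousal, a rate 1.58-fold lower than in deep aestivation (1.17 to 2.16) and 2.21-fold lower than in non-aestivation (1.67 to 2.95).

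**Figure D2:**
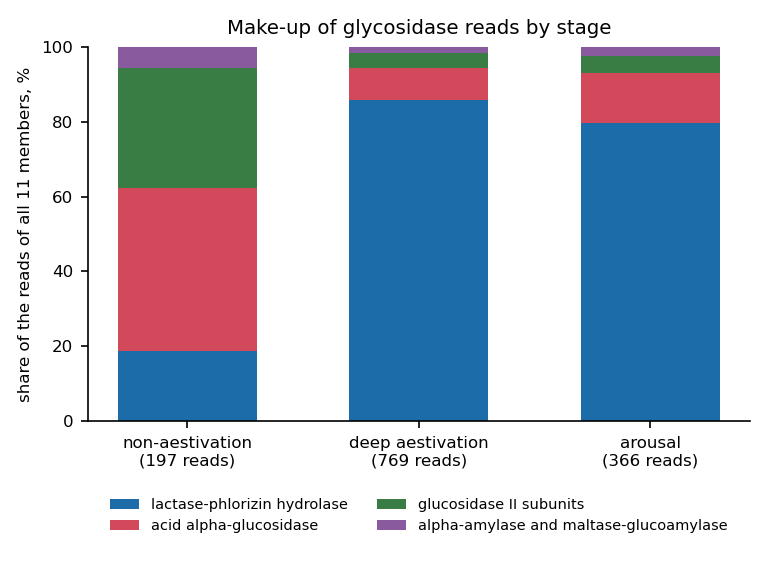
Share of the reads of all 11 glycosidase isotigs taken by each enzyme (%, stacked bars from 0) in the 3 libraries, with the number of reads under each bar. The lactase-phlorizin hydrolase part is 18.8% at non-aestivation, 86.0% at deep aestivation and 79.8% at arousal.

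By RPKM within a library, the order of the isotigs differed between stages. In non-aestivation acid alpha-glucosidase isotig23076 came first, above glucosidase II isotig23692 by 1.86-fold per length (1.11 to 3.18), and from there down no neighbours differed beyond counting error. In deep aestivation isotig08881 came first and isotig14693 second, 2.74-fold apart (2.25 to 3.38). Isotig14693 and the next in order, isotig23076, were not apart beyond counting error (1.32-fold, 0.904 to 1.96). Isotig23076 was 2.93-fold above isotig23692 (1.49 to 6.17), and lower neighbours did not differ beyond counting error. In arousal isotig08881 was 3.27-fold above isotig23076 (2.12 to 5.29), and lower neighbours again did not differ beyond counting error.

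Across all isotigs, a call of higher or lower meant a 2-fold difference, 1 unit of log2(RPKM + 0.5), among the 10896 isotigs with 20 or more summed reads. Of the 11 glycosidases, 7 met that minimum. In deep aestivation against non-aestivation, 2 of the 7 were higher, the lactase isotigs chosen for it, and 0 were lower, where 13.1% of all isotigs were higher and 18.6% lower. The median difference in log2(RPKM + 0.5) was -0.65 over the 5 other glycosidases, -0.12 over all isotigs and -0.36 over the 5686 isotigs with a protein match, which every glycosidase here has. Of those 5, 4 had a difference below 0, and each stayed within 2-fold. Among the 5686 isotigs with a protein match 455 were higher and 1374 lower, a larger part lower than over all isotigs.

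In arousal against deep aestivation 0 of the 7 were higher and 3 lower, against 8.06% and 8.93% of all isotigs. The 3 were glucosidase II isotig23692 and the lactase isotigs, which had been chosen for high counts in deep aestivation. Isotig14693 met the minimum of reads through that library alone, and isotig08881 was within 2-fold after removing the median of isotigs with a protein match. Of the 5 others 0 were higher and 1 lower, with a median difference of -0.45, against -0.0014 over all isotigs and -0.07 over those with a protein match. In arousal against non-aestivation 0 of these 5 were higher and 3 lower (isotig23076, isotig17760 and isotig23692), against 12.5% and 18.8% of all isotigs. Isotig08881, chosen in part for its low non-aestivation count, was higher, and isotig14693 had 0 reads in both libraries. Isotig23076 lay just inside 2-fold with TMM or median-of-ratios scaling, and only isotig23692 was lower when ratios had the median of isotigs with a protein match removed. The median was -1.12 over the 5 isotigs other than lactase, -0.13 over all isotigs and -0.40 over isotigs with a protein match. Of the 5686 isotigs with a protein match 380 were higher and 1454 lower in that comparison. The 2 comparisons with non-aestivation share that library, and the 2 with deep aestivation share that one.

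**Figure D3:**
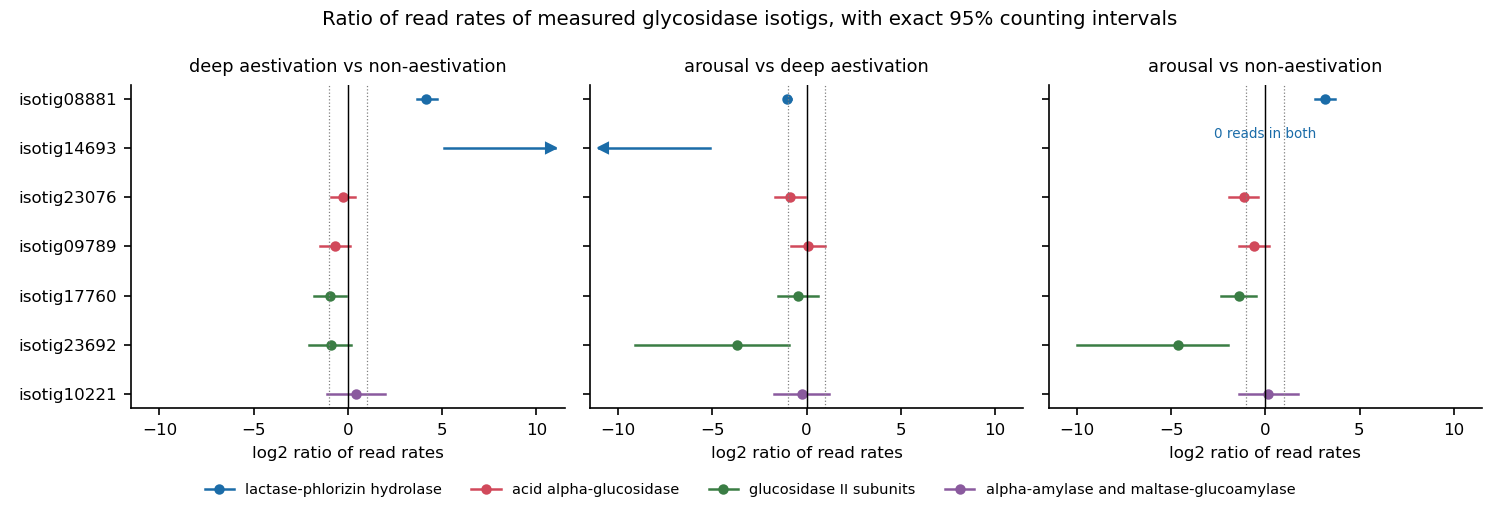
Log2 ratio of read rates of the 7 isotigs with at least 20 reads in the 3 comparisons, with exact 95% counting intervals; arrows run to the edge where 1 library had 0 reads, and dotted lines mark 2-fold. The lactase isotigs lie right of the 2-fold line in deep aestivation against non-aestivation, while both glucosidase II isotigs lie left of it in arousal against non-aestivation.

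The deposited coverage, the percentage of an isotig's length that carries a read, differed between members. In each of the 7129 cases of an isotig with a single read in a library, 49 bases were covered, so a read spans 49 bases. In deep aestivation isotig08881 was covered over 81.8% of its length at a mean depth of 10.7 reads, and in arousal over 79.4% at 5.77. Isotig09789 of acid alpha-glucosidase carried reads on only 28.4%, 26.0% and 28.6% of its 1202 bases in the 3 stages, at depths of 1.51, 0.897 and 1.02. For comparison, both glucosidase II isotigs reached 66.2% and 61.7% at depths of 1.02 and 0.955 in deep aestivation. On isotig09790 the 2, 5 and 2 reads of the 3 stages covered 54, 56 and 51 of 995 bases, little more than the span of 1 read. Alpha-amylase (isotig10221) carried reads on 15.3%, 17.6% and 19.2% of its 1108 bases, at depths of 0.354, 0.442 and 0.398. Even isotig08881, at its depth of 10.7 in deep aestivation, kept bases with no unique read. RPKM divides by the whole length, so the RPKM of each of these isotigs is spread over such bases as well.

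**Figure D4:**
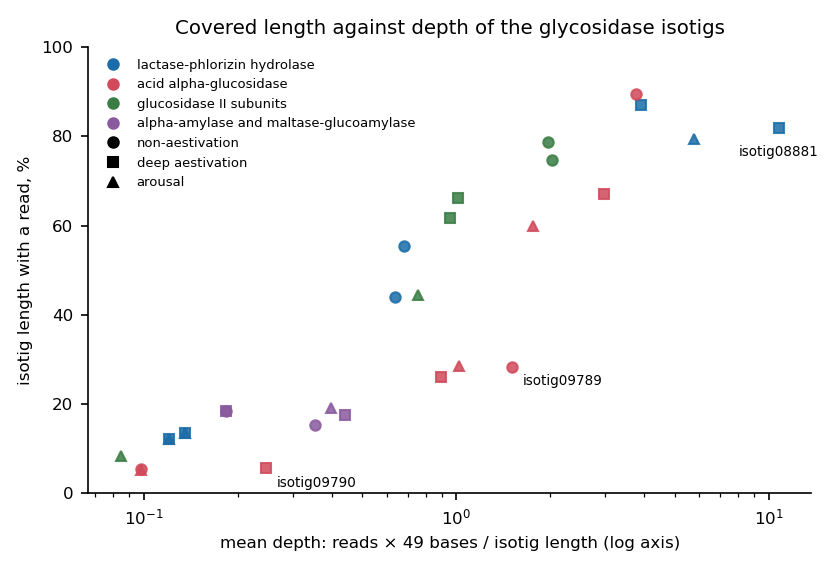
Percentage of isotig length with a read against mean depth (reads times 49 bases over length, log axis) for each glycosidase isotig and library with a read; colours give the enzyme and symbols the stage. Isotig09789 lies at 26.0% to 28.6%, below the glucosidase II isotigs at similar depth, and isotig09790 at 5.13% to 5.63%.

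Some features shared by members were not used in choosing them. Of the 11 isotigs, 6 have their best match in Strongylocentrotus purpuratus and 4 in Saccoglossus kowalevskii, and the glucosidase II beta subunit matches the opossum Monodelphis domestica. They have 8 distinct best matches. The authors' annotation gives gene ontology terms to 6 of the 11. The acid alpha-glucosidase isotigs carry glucosidase activity and lytic vacuole. Isotig23692 has a term for N-linked glycosylation and isotig17760 one for the endoplasmic reticulum. Of the 4 lactase isotigs 1 has a term, the general catalytic activity, so the name rests on the protein match alone for isotig08881 and isotig14693.

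Other transcripts were ranked by how like their distribution over the 3 stages was, among 1383 other isotigs with an informative name and at least 100 reads. Likeness was the Euclidean distance between shares of summed RPKM over only 3 libraries. The lactase isotigs had been chosen by these same values, so neighbours high in deep aestivation follow from that choice. Whether any of them are regulated together was not tested. Nearest to isotig14693 was serum amyloid protein A (isotig08093, distance 0.00818), an acute-phase protein in vertebrates, with 1, 162 and 0 reads. An angiopoietin-like protein (isotig23115, 0.319) with 11, 134 and 37 reads and an ependymin-related protein (isotig07194, 0.334) with 199, 773 and 103 reads were much further away. Next came an ectodysplasin-A-like isotig (isotig13595, 0.425) and isotig08881 itself (0.479). Nearest to isotig08881 was Sec61 gamma (isotig02636, 0.0494), part of the channel through which proteins enter the endoplasmic reticulum, with 18, 139 and 75 reads. It was followed by neurotrypsin (isotig14143, 0.0692) with 9, 62 and 37 reads, the transcription factor KLF2/4 (isotig09309, 0.0981) with 176, 1450 and 1028 reads, a von Willebrand factor isotig (isotig01105, 0.111) and a macrophage migration inhibitory-like factor (isotig14943, 0.118).

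Lactase-phlorizin hydrolase marks the gut in mammals, so secreted digestive enzymes and digestive tract markers were read in the same libraries. Of 10 isotigs on that list, 5 had at least 20 reads. In deep aestivation 3 of the 5 were higher than in non-aestivation and 1 lower, with a median difference of 1.39 in log2(RPKM + 0.5), against 13.1% and 18.6% of all isotigs. The higher ones were carboxypeptidase A-like (isotig13961), at 77.5 RPKM in deep aestivation and 29.2 in non-aestivation, and 2 aminopeptidase N isotigs, a brush border peptidase in mammals. Isotig05197 of aminopeptidase N had 23 reads in deep aestivation and 3 in non-aestivation, 8.14-fold higher (2.46 to 42.3). Isotig05199 had 12 and 2, 6.37-fold higher (1.42 to 58.6). These 2 have the same best-match name and may come from 1 gene. Rarer aminopeptidase N isotigs, below the minimum of reads, had too few reads in deep aestivation and non-aestivation to show or deny this difference. In the order of the stages they had 0, 2 and 10 reads (isotig05198) and 3, 1 and 0 (isotig22319).

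An anionic trypsin isotig (isotig13029) was the lower one, at 486.1 RPKM in deep aestivation and 1037 in non-aestivation, and a trypsin-like serine protease (isotig13602) stood at 1396 and 978.0. In arousal 4 of the 5 were higher and 1 lower than in non-aestivation, against 12.5% and 18.8% of all isotigs. Against deep aestivation 0 of 5 passed 2-fold, where 8.06% of all isotigs were higher and 8.93% lower. The trypsin of isotig13029 was within 2-fold in deep aestivation with TMM, median-of-ratios or matched-isotig scaling. The summed level of all 10 was 2059, 1978 and 2680 RPKM in the order of the stages, and 2, 3 and 3 of them were at 0 reads. Enteropeptidase (isotig21549) had 4 reads in non-aestivation and 0 elsewhere. Whether digestive tract RNA has a part in the lactase difference was not tested.

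Of 8 isotigs of other lysosomal and related glycosidases, not among the 11, 7 had at least 20 reads, and 0 of the 7 passed 2-fold in deep aestivation against non-aestivation or in arousal against deep aestivation, though removing the median of matched isotigs puts 1 above it in deep aestivation. The shares of all isotigs were 13.1% higher and 18.6% lower in the first comparison and 8.06% and 8.93% in the second. With only 7 isotigs, 0 or 1 call cannot be told apart from those shares. Their summed level was 358.8, 340.4 and 349.9 RPKM in the 3 stages. The lysosomal beta-galactosidase (isotig13623), the most abundant of them by reads, had 144.8 RPKM in deep aestivation and 94.4 in non-aestivation, 1.53-fold higher (1.26 to 1.87). Alpha-L-fucosidase (isotig27355) stood at 97.8, 81.9 and 103.1 RPKM in the 3 stages. A neuraminidase 4-like isotig (isotig17059) was 2.76-fold lower in arousal than in non-aestivation (1.30 to 6.40), with 10 and 27 reads.

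Of 6 isotigs for enzymes of glycogen and glucose supply, 4 had at least 20 reads, and in deep aestivation 3 of the 4 were lower than in non-aestivation and 0 higher, against 18.6% and 13.1% of all isotigs. Among the 5686 isotigs with a protein match, as these are, 1374 were lower and 455 higher. Just 2 of the 4 were lower with TMM or median-of-ratios scaling and 1 after removing the median of matched isotigs. Against non-aestivation, arousal was lower on 4 of 4, and on 3 after that removal. In that comparison 18.8% of all isotigs and 1454 of the 5686 matched ones were lower. Their summed level was 209.7, 86.5 and 51.8 RPKM in the 3 stages. Of the 4, 2 have the same best-match name, glycogen synthase, and may come from 1 gene.

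Glycogen synthase, which builds glycogen, had 25.1 RPKM in deep aestivation and 64.3 in non-aestivation on isotig22725, 2.56-fold lower (1.36 to 5.11). On isotig22915 it had 25.6 RPKM in deep aestivation and 51.7 in non-aestivation, 2.02-fold lower (1.04 to 4.12) and on the line of a call. In arousal these isotigs had 8.27 and 11.8 RPKM, 7.78-fold (3.06 to 25.3) and 4.38-fold (1.89 to 11.8) lower than in non-aestivation. A phosphoglucomutase-like isotig (isotig17097), which links glycogen to glycolysis, had 4 reads in deep aestivation and 24 in non-aestivation, 5.66-fold lower (1.94 to 22.4). UDP-glucose pyrophosphorylase (isotig13594), which makes the sugar donor for glycogen, was at 29.9 RPKM in deep aestivation and 55.8 in non-aestivation, 1.87-fold lower (1.33 to 2.66), and 2.40-fold lower in arousal than in non-aestivation (1.67 to 3.49).

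**Figure D5:**
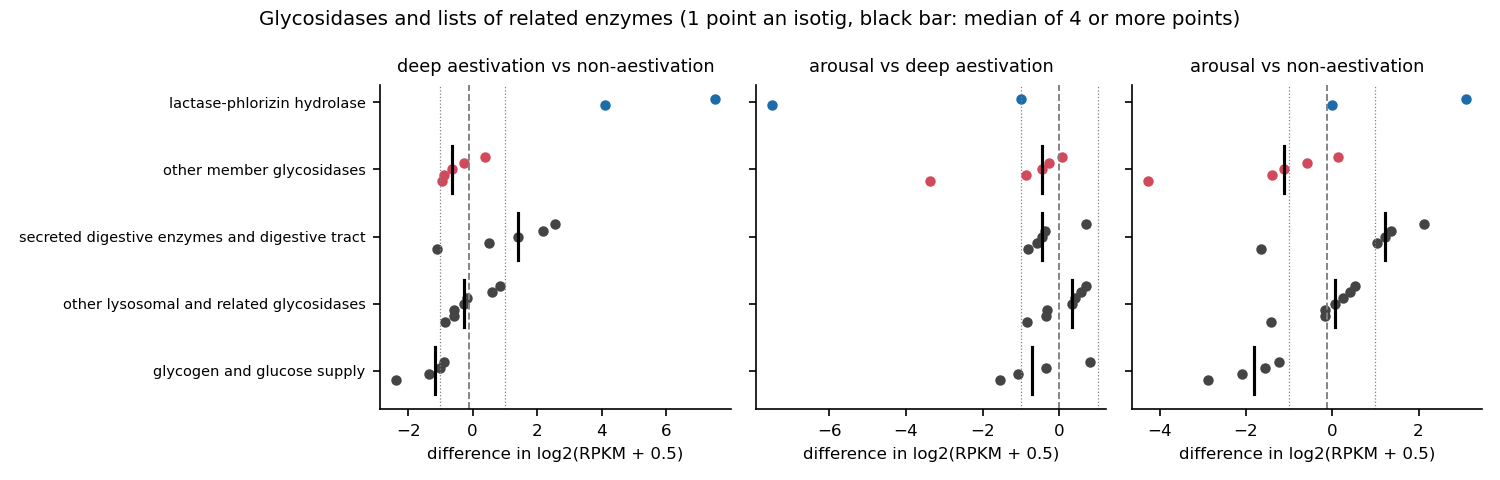
Difference in log2(RPKM + 0.5) of isotigs with at least 20 reads, 1 point each, for the lactase isotigs, the 5 other glycosidases and 3 lists of related enzymes in the 3 comparisons. Dotted lines mark 2-fold, the dashed line the median of all isotigs and black bars a list's median; glycogen and glucose supply lies left of the dashed line throughout both comparisons with non-aestivation, and differences of isotig14693 depend on the 0.5 added to a level of 0.

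Carbohydrases with other names were looked up after values had been seen. Sucrase-isomaltase (isotig13501), a further brush border enzyme in mammals, had 21, 11 and 19 reads in the 3 stages, and maltase 1 (isotig13364) had 16, 9 and 15. Chitobiase (isotig20042), which degrades chitin-type sugar chains in lysosomes, had 40, 35 and 44 reads. An isotig matched to a bacterial-type xylanase name (isotig15407) had 24 reads in non-aestivation and 0 elsewhere. Apart from that last one, each differed by less than 2-fold in all 3 comparisons.

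Markers of other tissues were read in the same libraries, where 13.1% of all isotigs were higher and 18.6% lower in deep aestivation against non-aestivation. Of 4 measured gonad isotigs (6 in all) 3 were lower in deep aestivation against non-aestivation. The summed level of the 6 was 272.5, 82.8 and 62.7 RPKM in the 3 stages. The sperm protein bindin had 61, 0 and 0 reads, and synaptonemal complex protein 1 (isotig13498) had 23, 0 and 1. Those 2 met the minimum of reads through non-aestivation alone, so they could only be called lower. Of 15 measured coelomocyte isotigs (27 in all) 6 were lower and 1 higher in deep aestivation, with summed levels of 1191, 627.9 and 702.0 RPKM. All of these calls fell on isotigs with a scavenger receptor cysteine-rich name. Profilin-A (isotig05206), the only measured one with another name, stood at 51.4 RPKM in non-aestivation and 79.9 in deep aestivation, 1.56-fold higher (1.23 to 1.98). Of 5 measured muscle isotigs (8 in all) 2 were lower (1 after removing the median of matched isotigs), both of them myosin heavy chain. The summed muscle level was 524.1, 368.4 and 420.0 RPKM. The other 3 were within 2-fold from non-aestivation to deep aestivation. They were tropomyosin (isotig02768, 161.5 and 167.4 RPKM), troponin T (isotig18030, 53.7 and 43.9) and troponin I (isotig24897, 34.5 and 51.6). Of the bacterial wall list only a peptidoglycan recognition protein (isotig13870) was measured, at 87.6 RPKM in deep aestivation and 43.9 in non-aestivation, just under 2-fold and past it with TMM. The part of these markers in the glycosidase differences was not tested.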

How the data were processed

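Per the labels' protocols, poly(A) RNA was fragmented before random-primed cDNA synthesis, with no step described that keeps strand, so reads do not tell overlapping opposite transcripts apart. CASAVA 1.5 appears in the submitters' processing notes, and no aligner is named in what was used here. For each isotig of a transcriptome assembly the authors deposited, per the file headers, the unique read count, the coverage as a percent of its length and the RPKM. All deposited RPKM values matched those recomputed from the counts within a relative tolerance of 1e-09. Unique counting can split or drop reads of near-identical isotigs.

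Isotigs not listed for a library have 0 reads. Counts have exact Poisson intervals, shares exact binomial (Clopper-Pearson) ones, and ratios of read rates exact conditional binomial ones, all at 95%. Floors read a count of 0 as 3 reads in that library. The reads carry no molecular identifiers and are thus not independent molecules. No test fits 1 library per group, so the 2-fold rule stands in for one, and its script was tested on simulated data.

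Members and lists were chosen with earlier results of these data known. All members are named, with values where they had at least 20 reads, and the 5 nearest isotigs were named for each lactase isotig. Names holding words such as hypothetical or uncharacterized were not informative. List patterns had to match whole words, and after the names were seen, inhibitors, kinases and receptors were left out of the digestive, glycogen and gonad lists. No sequences or genome positions of isotigs were used here. Alternatives were other pseudocounts, minimum reads and scalings (TMM from edgeR 4.0.16, median-of-ratios from DESeq2 1.42.0, totals less the top 10 isotigs per library), a counting-interval criterion and sums over 1 name. Centring on isotigs with a protein match and isotig08881 alone were chosen after seeing the data. Python 3.11.15, numpy 2.4.6, pandas 2.3.3, scipy 1.17.1 and R 4.3.3 were used.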

Additional observations from a re-analysis of the deposited data

How the results depend on the processing

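No paired analysis was possible because each stage has 1 library. Spread between animals or preparations cannot be seen, no library can be left out, and at 0.887 M to 0.963 M reads the ratio intervals of single members mostly span more than 2-fold from end to end. Adding beta-glucosidase names to the lactase sum gave no value, since no isotig has that name.

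The lactase sum rests mainly on the 2 isotigs chosen for their pattern, and it kept its direction in all 3 comparisons under every scaling. That is no independent support for the pattern, since the scalings moved the ratios little. With isotig08881 alone the lactase log2 ratio in arousal against deep aestivation was -1.01, against -1.30 for the 4 isotigs, because isotig14693 had 0 reads at arousal. Without a minimum of reads, which adds 4 rare isotigs, 4 of 11 were higher and 1 lower in deep aestivation against non-aestivation. The higher ones included isotig27463, with 1 read against 0, and isotig09790, with 5 against 2. In that setting 5 of 11 were lower in arousal than in deep aestivation, and 2 were higher and 5 lower than in non-aestivation. With isotigs of 1 name summed, 1 of 5 was higher in deep aestivation than in non-aestivation. In arousal against non-aestivation 1 of 3 was lower with at least 100 reads and 1 of 7 with centring on isotigs with a protein match. Shares over all isotigs were not counted for the other minimums or for summed names, so those counts have no background. The cause was not tested beyond the number of isotigs that each setting compares.

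TMM scaling moved the median of all isotigs by 0.12 in deep aestivation and 0.13 in arousal against non-aestivation on the log2 scale, and centring by 0.36 and 0.40. The difference of isotig23076 in arousal against non-aestivation was -0.99 with TMM and -0.996 with median-of-ratios factors, inside the 2-fold line. With centring, isotig08881 in arousal against deep aestivation (-0.94) and isotig17760 in arousal against non-aestivation (-0.98) were also inside it. Of calls over all isotigs in deep aestivation against non-aestivation, 41.3% were higher (1430 higher, 2029 lower), and 64.9% with centring (2337 higher, 1266 lower). In arousal against non-aestivation 40.0% were higher (1366 higher, 2053 lower), and 68.2% with centring (2453 higher, 1142 lower).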
